A study of Homo sapiens with 27 samples.

Results

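Breast cancer stem cell markers are genes whose products are used to enrich tumor cells that can start new tumors, or that help maintain such cells. The 10 genes described here were chosen by name, with earlier results of these data known, and are 10 of the 57165 genes in the deposited table. They are the surface markers CD44, CD24 and PROM1, the aldehyde dehydrogenases ALDH1A1 and ALDH1A3, the nuclear regulators SOX2, SOX9 and BMI1, and the receptors NOTCH1 and NOTCH3. RNA was sequenced from SUM159 and MDA-MB-231, human triple negative breast cancer cell lines of the mesenchymal, claudin-low type, in 27 libraries that form 9 groups of 3. In each line, wild type cells were untransduced, No gRNA cells carried the lentiviral vector pLV dCas9-KRAB without a targeting guide, and targeted cells carried the same vector with guides against the ZEB1 promoter, given to SUM159 as gRNA 4 or as the pool of 4 gRNAs (All gRNA). All transduced cells were selected with puromycin, and dCas9-KRAB, a repressor fused to Cas9 that cannot cut, was driven by the human ubiquitin C promoter. The study describes its replicates as individual clones, and p-values measure the spread between these libraries.

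For 6 MDA-MB-231 libraries the label fields disagree on the guide. In set 1 the titles name gRNA 4 and the data columns the pool, and in set 2 the reverse. Neither set was assigned to a guide here, and both carry guides against ZEB1. The titles of 3 more wild type SUM159 libraries name a run 2, and no other title names a run. The data columns of these 3 share a prefix with those of MDA-MB-231, and the other SUM159 columns carry another. These prefixes were read here as run 2 and run 1, which the labels do not state for MDA-MB-231. Outside wild type cells, line and run therefore cannot be told apart. The libraries held 15461200 to 21473757 estimated counts. Of the marker genes for other cells, PTPRC (leukocytes) reached at most 0.294 CPM (the count relative to its library's scaled total) in any library, CD3E (T cells) 0.0594, VWF (endothelium) 1.26, and the estrogen receptor gene ESR1 0.185, while the mesenchymal marker VIM was at 1316 CPM or more in all 27. CD68 and PECAM1, which these lines also expressed, were at 8.50 to 173.6 CPM and 0.382 to 7.93 CPM. Of the other mesenchymal genes, FN1 was at 211.5 to 2320 CPM and CDH2 at 0.0455 to 139.3 CPM. The receptor gene ERBB2 was at 38.1 to 72.1 CPM, and PGR at 0.959 CPM at most. The luminal genes KRT8 and KRT18 were at 80.7 to 1056 CPM and 152.4 to 1118 CPM. KRT19 ranged from 0 to 310.8 CPM, GATA3 from 2.51 to 14.8, CDH1 from 0 to 24.2 and CLDN4 from 0.0996 to 144.2.

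ZEB1 is a zinc finger repressor that binds E-box sequences in the promoters of epithelial genes and keeps cells in a mesenchymal state. Breast cancer cells with high CD44 and low CD24 at the surface, and cells with high aldehyde dehydrogenase activity, have been described as stem cell populations, the former as more mesenchymal and the latter as more epithelial. CD44 is the receptor for hyaluronan, a polysaccharide of the matrix, and CD24 is a small, heavily glycosylated surface protein carried by luminal epithelial cells. The comparison below asks whether the balance of CD44 to CD24 mRNA, and the other markers, differed once ZEB1 was repressed.

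The start regions of the 4 genes that the results turn on are shown because ZEB1 is known to bind the E-box letters CAGGTG, or CACCTG when read on the other strand. These windows run from 250 bases before to 50 bases after a RefSeq start site on GRCh38.p14, read along the gene's own strand. Both spellings were searched, without overlap between them, and matches are in capitals. Of 35116 RefSeq windows of this length, 20.6% held at least 1 match. Among the members, 9 have a window, and 3 of these, CD24, PROM1 and ALDH1A1, held a match in at least 1 of their windows. The 20.6% counts single windows while a gene can have several, so it is not a background for this count of genes. The CD24 window shown is the only one of its 3 with a match, which starts at position -249 from its start site. It lies inside the gene, downstream of the annotated gene start at 106975627 on the minus strand. The window over that gene start (106975578 to 106975877) held 0 matches. In ALDH1A1 the match starts at position 26. A match is a run of letters and was not tested as a binding site.
CD44 (chr11:35138921-35139220, plus strand): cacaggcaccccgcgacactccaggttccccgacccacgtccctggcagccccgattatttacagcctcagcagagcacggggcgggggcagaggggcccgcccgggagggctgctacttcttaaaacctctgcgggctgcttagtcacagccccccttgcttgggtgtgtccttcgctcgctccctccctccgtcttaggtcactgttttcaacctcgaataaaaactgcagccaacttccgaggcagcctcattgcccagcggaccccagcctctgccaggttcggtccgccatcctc
CD24 (chr6:106973990-106974289, minus strand): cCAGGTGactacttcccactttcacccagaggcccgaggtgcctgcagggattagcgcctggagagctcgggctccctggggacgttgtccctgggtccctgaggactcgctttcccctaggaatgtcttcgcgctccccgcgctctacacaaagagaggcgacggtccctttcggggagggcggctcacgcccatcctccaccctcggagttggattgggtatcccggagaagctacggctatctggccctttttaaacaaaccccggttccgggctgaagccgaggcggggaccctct
ALDH1A1 (chr9:72953004-72953303, minus strand): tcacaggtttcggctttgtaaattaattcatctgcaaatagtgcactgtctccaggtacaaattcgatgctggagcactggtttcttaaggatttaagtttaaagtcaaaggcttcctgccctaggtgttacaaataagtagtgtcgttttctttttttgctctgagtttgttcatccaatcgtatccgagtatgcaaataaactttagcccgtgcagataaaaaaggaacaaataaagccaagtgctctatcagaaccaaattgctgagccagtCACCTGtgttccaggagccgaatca
ALDH1A3 (chr15:100879581-100879880, plus strand): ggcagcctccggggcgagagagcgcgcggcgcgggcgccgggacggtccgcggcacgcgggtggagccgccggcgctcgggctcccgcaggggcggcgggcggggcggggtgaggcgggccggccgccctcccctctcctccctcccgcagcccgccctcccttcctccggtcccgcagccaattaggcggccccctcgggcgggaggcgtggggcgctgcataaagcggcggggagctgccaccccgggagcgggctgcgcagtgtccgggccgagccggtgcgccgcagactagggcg

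The targeted gene was checked first. ZEB1 (chromosome 10, 31318495 to 31529814, GRCh38, plus strand) was at 70.7, 77.3 and 73.3 CPM in the SUM159 No gRNA libraries, at 4.56, 3.25 and 2.57 CPM under gRNA 4, and at 0.811, 0.375 and 1.02 CPM under All gRNA. MDA-MB-231 values were 104.4, 121.8 and 104.1 CPM in No gRNA, 4.75, 5.51 and 5.74 CPM in set 1, and 4.93, 3.70 and 5.43 CPM in set 2. All targeted libraries therefore lay far below their controls. The antisense gene ZEB1-AS1 overlaps ZEB1 and its strand of origin cannot be told from these counts. ZEB1-AS1 had log2 fold changes of -5.83 with All gRNA, -0.80 with gRNA 4 (moderated adjusted p = 0.0854), -4.71 in set 1 and -2.64 in set 2.

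A pair of thresholds is used below, both from voom-limma, a linear model on log2 counts fitted over the 12 libraries of a line. A gene is called by the moderated test when its difference from 0 has a Benjamini-Hochberg adjusted p-value under 0.05 over all genes tested. It is called by TREAT when the difference is also shown to exceed 1 on the log2 scale. Levels are CPM after TMM scaling, with SD over n = 3 libraries. Because these are bulk libraries, more RNA per cell and more cells that express a gene cannot be told apart.

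Of the 10 members, 8 had enough counts to be tested in SUM159 and 7 in MDA-MB-231. In SUM159, CD44 and ALDH1A1 rose in both targeted groups, 2 of 8 by the moderated test, beside 10.8% of all 15147 genes with All gRNA (5.93% higher, 4.89% lower) and 11.0% with gRNA 4 (6.11% higher, 4.91% lower). TREAT called 0 members there, beside 0.396% and 0.390% of all genes. In MDA-MB-231 set 1, 5 members rose (CD44, CD24, ALDH1A3, SOX9, NOTCH1) and NOTCH3 fell, 6 of 7 beside 37.8% of all 15721 genes (20.4% higher, 17.3% lower). In set 2, CD44, CD24 and ALDH1A3 rose and NOTCH3 fell, 4 of 7 beside 52.4% (27.3% higher, 25.1% lower). TREAT called ALDH1A3 in set 1, beside 1.47% of genes, and no member in set 2, beside 4.14%, where 4 of the 7 had a moderated call. The median log2 fold change over the members tested was 0.24 with All gRNA, 0.14 with gRNA 4, 0.55 in set 1 and 0.03 in set 2, where the median over all genes lay between -0.01 and 0.00. The 2 targeted groups of a line share their No gRNA libraries, so their values are given side by side and not as independent evidence. The members were chosen with earlier results known, so the shares of all genes do not test them as a set.

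**Figure D1:**
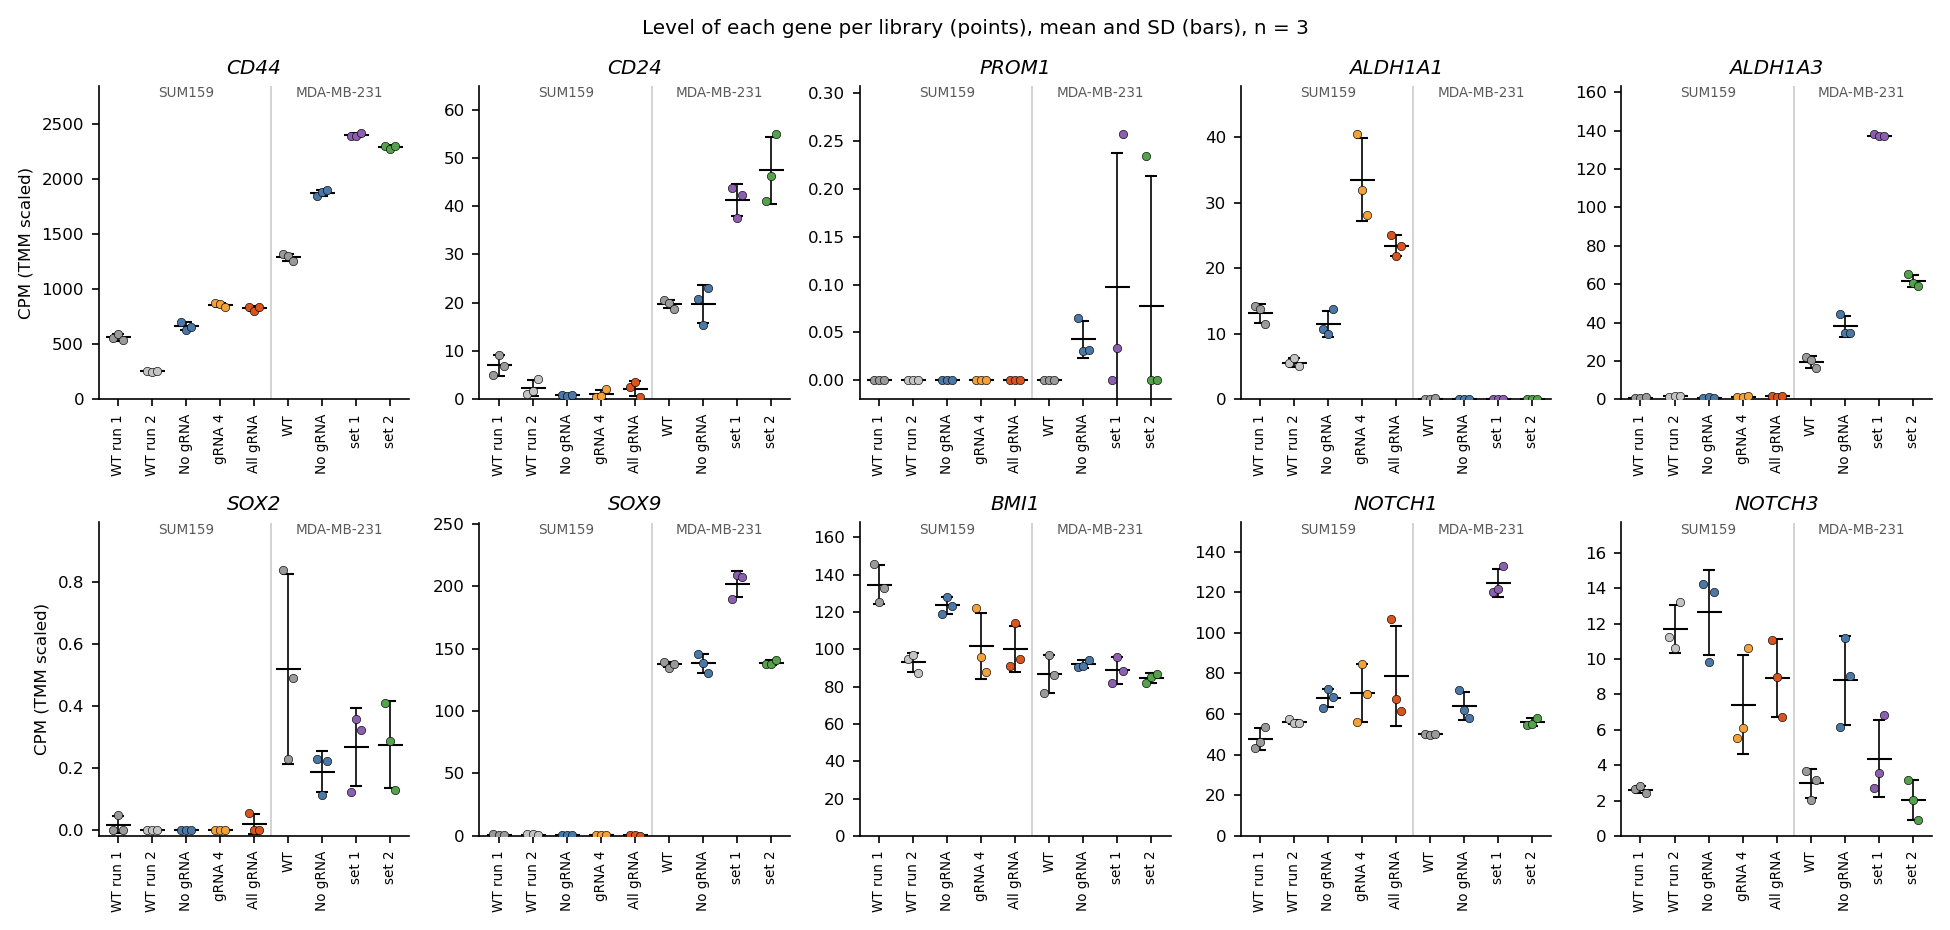
Level of each of the 10 genes in all 27 libraries, in CPM after TMM scaling on the y axis, with 1 point per library and bars for the mean and SD of each group of 3 (WT, wild type). CD44 was above its No gRNA libraries in every targeted library of both lines, ALDH1A1 was seen in SUM159 and SOX9 almost entirely in MDA-MB-231, and PROM1 and SOX2 stayed under 1 CPM throughout.

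CD44 (chromosome 11, 35138882 to 35232402, plus strand) was the most abundant member per length in every group. In SUM159, its 3 No gRNA libraries were at 702.0, 632.4 and 653.0 CPM, those with gRNA 4 at 872.1, 861.6 and 840.9 CPM, and those with All gRNA at 838.4, 802.3 and 834.4 CPM. Neither targeted group overlapped No gRNA. In MDA-MB-231, CD44 was at 1843, 1881 and 1899 CPM in No gRNA, 2384, 2385 and 2418 CPM in set 1, and 2301, 2269 and 2296 CPM in set 2, again with no overlap. The log2 fold changes were 0.37 with gRNA 4 (standard error 0.0480, moderated adjusted p = 0.00042), 0.32 with All gRNA (standard error 0.0480, adjusted p = 0.00134), 0.36 in set 1 (standard error 0.0187, adjusted p = 7.9e-08) and 0.31 in set 2 (standard error 0.0187, adjusted p = 1.07e-07). CD44 thus rose by 1.24-fold to 1.29-fold in all 4 comparisons, too little for TREAT (adjusted p = 1 in each). It was already higher in No gRNA than in wild type cells, by 0.23 on the log2 scale in SUM159 and by 0.49 in MDA-MB-231.

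CD24 (chromosome 6, 106969831 to 106975627, minus strand) rose in MDA-MB-231. It was at 20.7, 15.4 and 23.1 CPM in No gRNA, at 43.8, 37.5 and 42.4 CPM for set 1 and at 41.2, 46.2 and 54.9 CPM for set 2, so that every targeted library lay above every control. The log2 fold changes were 1.08 in set 1 (standard error 0.148, moderated adjusted p = 0.000167) and 1.29 in set 2 (standard error 0.145, adjusted p = 1.79e-05), and TREAT called neither (adjusted p = 1 and 0.462). Wild type MDA-MB-231 cells, at 20.5, 19.9 and 18.8 CPM, overlapped No gRNA. The CD24 pseudogenes CD24P1, CD24P2 and CD24P5 were listed at 0 in all libraries, and CD24P4 reached 0.05 CPM at most.

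In SUM159, CD24 was lower, at no more than 9.13 CPM in any of the 15 libraries, and varied between the targeted clones. The No gRNA libraries were at 0.935, 0.765 and 0.864 CPM, those with gRNA 4 at 0.466, 0.605 and 2.18 CPM, and those with All gRNA at 2.58, 3.60 and 0.589 CPM. Of the 6 targeted libraries, 3 lay above No gRNA and 3 below. The log2 fold change was 1.01 with All gRNA (95% interval -0.61 to 2.63, moderated adjusted p = 0.44) and -0.01 with gRNA 4 (95% interval -1.85 to 1.83, adjusted p = 0.998), so a rise as large as that in MDA-MB-231 lies inside both intervals. The value for All gRNA was 0.50 without its replicate 2 and 1.80 without its replicate 3 (moderated adjusted p = 0.0726), and that for gRNA 4 was 0.41, 0.23 and -0.67 without its replicates 1, 2 and 3. Wild type SUM159 cells held more CD24, at 4.96, 9.13 and 7.0 CPM in run 1, and No gRNA cells were 2.96 lower on the log2 scale (standard error 0.646, moderated adjusted p = 0.00319). In run 2, wild type SUM159 cells were at 1.21, 1.66 and 4.17 CPM.

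The CD44-high, CD24-low profile was summarized per library as log2 CPM of CD44 minus log2 CPM of CD24, with a prior count of 2. In MDA-MB-231, No gRNA libraries were at 6.47, 6.92 and 6.35, set 1 at 5.76, 5.99 and 5.83, and set 2 at 5.80, 5.62 and 5.38. Both sets lay below all controls, by 0.72 and 0.98. As a plain ratio, CD44 counts were 95.7 times those of CD24 in No gRNA, 58.1 times for set 1 and 48.5 times for set 2 (geometric means). The two-sided exact permutation p-value was 0.1 for each, the smallest that 3 libraries against 3 can give. Both genes rose, and CD24 rose by more.

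In SUM159 the ratio did not separate the groups. It was 9.39, 9.49 and 9.38 in No gRNA, 10.6, 10.2 and 8.52 with gRNA 4, and 8.28, 7.76 and 10.2 with All gRNA. The difference was 0.35 with gRNA 4 (exact permutation p = 0.7, n = 3 per group) and -0.67 with All gRNA (exact permutation p = 0.4, n = 3 per group). The former was -0.05 without gRNA 4 replicate 1, 0.12 without replicate 2 and 0.97 without replicate 3, and the latter was -0.44, -0.17 and -1.40 without All gRNA replicates 1, 2 and 3. The difference between No gRNA and wild type SUM159 cells of run 1 was larger, 3.08 higher in No gRNA with no overlap (exact permutation p = 0.1, n = 3 per group), while in MDA-MB-231 it was 0.56 higher. Measured from wild type cells in place of No gRNA, the ratio was higher in SUM159 targeted cells, by 3.42 with gRNA 4 and 2.41 with All gRNA, and differed by -0.16 and -0.42 in MDA-MB-231 sets 1 and 2.

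**Figure D2:**
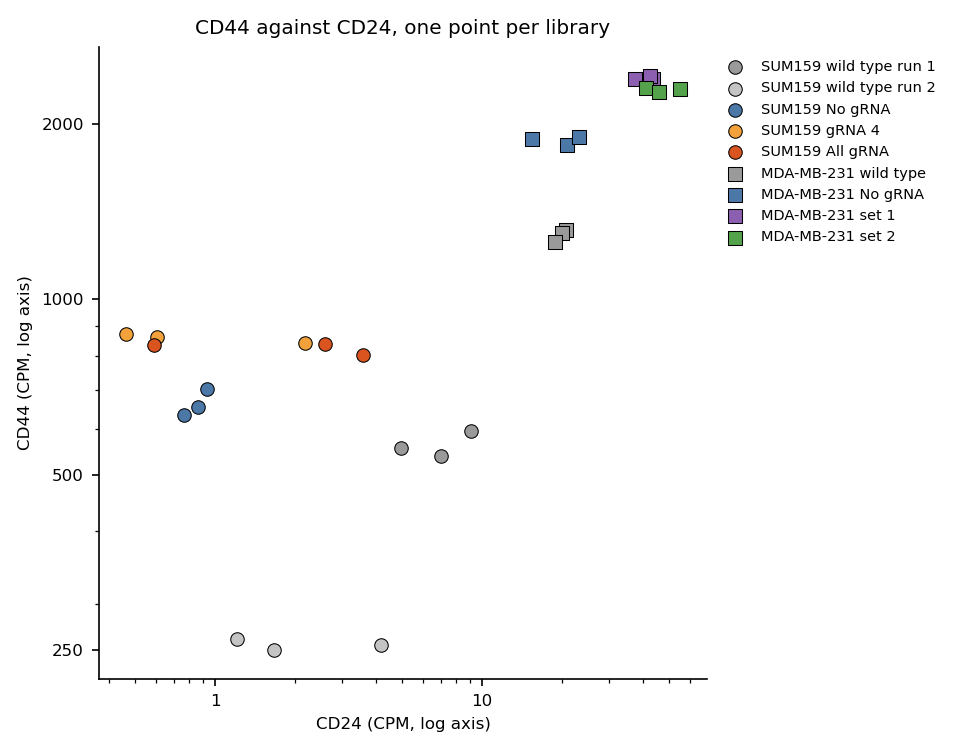
CD44 against CD24 in each of the 27 libraries, both in CPM on log axes, with circles for SUM159 and squares for MDA-MB-231 and colors for the groups. The MDA-MB-231 sets 1 and 2 lie to the right of and above their No gRNA libraries, while the SUM159 targeted libraries lie above No gRNA in CD44 and spread from 0.466 to 3.60 CPM in CD24.

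PROM1, the surface protein CD133, was not detected in SUM159, with 0 counts in all 15 libraries. In the 12 MDA-MB-231 libraries it reached at most 4.03 counts, and 10 of them held 3 or fewer. It passed the filter on low counts in neither line, and a difference was not detectable at this depth.

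The aldehyde dehydrogenases oxidize retinal to retinoic acid and account for the enzyme activity used to sort stem-like breast cells, and each line expressed its own member. ALDH1A1 (chromosome 9, 72900671 to 73080442, minus strand) was measured in SUM159, at 10.8, 9.99 and 13.7 CPM in No gRNA, 40.5, 31.9 and 28.1 CPM with gRNA 4, and 25.0, 21.8 and 23.4 CPM with All gRNA. The targeted libraries were all above No gRNA and above wild type cells of run 1, which were at 14.2, 13.8 and 11.5 CPM. The log2 fold change was 1.53 with gRNA 4 (standard error 0.164, moderated adjusted p = 9.19e-05) and 1.03 with All gRNA (standard error 0.169, adjusted p = 0.00222), or 2.88-fold and 2.04-fold. TREAT called neither, with adjusted p-values of 0.498 and 1. All gRNA libraries lay below gRNA 4 libraries, at a log2 difference of -0.50 that did not pass the test (adjusted p = 0.179). In MDA-MB-231, ALDH1A1 was at 0 counts in the 9 transduced libraries and reached 2.75 counts in wild type cells, so no comparison was made.

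ALDH1A3 (chromosome 15, 100877714 to 100916626, plus strand) rose in MDA-MB-231 and was the one member past the TREAT threshold against No gRNA. It was at 44.5, 34.7 and 34.8 CPM in No gRNA, 138.2, 137.0 and 137.0 CPM in set 1, and 65.4, 60.4 and 59.2 CPM in set 2. Set 1 lay above set 2, and both lay above No gRNA with no overlap. Set 1 had a log2 fold change of 1.87, or 3.65-fold, with a standard error of 0.0940 and a TREAT adjusted p-value of 0.000143. For set 2 the log2 fold change was 0.73 (standard error 0.104), which passed the moderated test (adjusted p = 0.000114) and not TREAT (adjusted p = 1). Wild type cells were at 22.3, 20.6 and 16.3 CPM, and No gRNA was 0.90 above them on the log2 scale (moderated adjusted p = 0.000107). Against wild type cells, TREAT called ALDH1A3 in both sets. In SUM159, ALDH1A3 stayed between 0.510 and 1.91 CPM, with log2 fold changes of 0.95 and 0.90 for All gRNA and gRNA 4 that did not pass the test (moderated adjusted p-values of 0.159 and 0.183). The antisense gene ALDH1A3-AS1 overlaps this locus, at group means of 0.475 to 4.28 CPM. By group mean it was lower than ALDH1A3 in every MDA-MB-231 group and higher than ALDH1A3 in every SUM159 group.

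SOX9, a transcription factor of luminal progenitor cells, was at 145.6, 138.5 and 130.7 CPM in MDA-MB-231 No gRNA, 189.7, 208.8 and 207.3 CPM in set 1, and 137.8, 137.5 and 141.3 CPM in set 2. It rose in set 1, by 0.55 on the log2 scale (standard error 0.0483, moderated adjusted p = 5.13e-06). Set 2 overlapped No gRNA, with a log2 fold change of 0.03 (95% interval -0.08 to 0.14). In SUM159 it was at 0.318 to 1.44 CPM and passed the test with neither gRNA 4 nor All gRNA, and No gRNA cells were 1.09 lower than wild type cells of run 1 on the log2 scale (moderated adjusted p = 0.0163). SOX2, a pluripotency factor, held at most 0.987 counts in the 15 SUM159 libraries and at most 13.9 in MDA-MB-231, the latter in a wild type library, and was not tested.

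BMI1, a subunit of Polycomb repressive complex 1 that maintains self-renewal, was expressed in every library of both lines. In SUM159 it was at 119.0, 128.2 and 123.5 CPM in No gRNA, 122.0, 95.8 and 88.1 CPM with gRNA 4, and 91.2, 114.3 and 95 CPM with All gRNA. The log2 fold changes of -0.30 and -0.31 did not pass the moderated test (adjusted p-values of 0.138 and 0.121), and that of gRNA 4 passed without gRNA 4 replicate 1 (-0.44, adjusted p = 0.0249). In MDA-MB-231 they were -0.05 in set 1 (95% interval -0.23 to 0.13) and -0.10 in set 2 (95% interval -0.27 to 0.08). The readthrough gene COMMD3-BMI1 shares BMI1 exons, so reads could be split between them, and its group means were 4.68 to 7.85 CPM.

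NOTCH1 and NOTCH3 are receptors that, once cleaved, release an intracellular part that drives transcription of HES and HEY genes. NOTCH1 was at 71.7, 62.0 and 58.0 CPM in MDA-MB-231 No gRNA, 119.9, 121.6 and 132.7 CPM in set 1, and 54.5, 55.2 and 58.3 CPM in set 2. It rose in set 1, by 0.97 (log2, standard error 0.0698, moderated adjusted p = 1.03e-06), or 1.96-fold, and differed by -0.16 on the log2 scale in set 2 (95% interval -0.34 to 0.01, adjusted p = 0.107). The latter passed the test without No gRNA replicate 3 (-0.23, adjusted p = 0.0331) or with library totals for scaling (-0.22, adjusted p = 0.0313), and was -0.08 without No gRNA replicate 1 and 0.13 against wild type cells. Against wild type cells, TREAT called NOTCH1 in set 1. In SUM159 the groups overlapped, with log2 fold changes of 0.17 for All gRNA and 0.02 for gRNA 4. One All gRNA library, at 106.8 CPM, stood above the others, at 67.3 and 61.6 CPM, and without it the log2 fold change was -0.07.

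NOTCH3 was at 6.16, 11.2 and 9.07 CPM in MDA-MB-231 No gRNA, 2.71, 3.58 and 6.83 CPM in set 1, and 3.15, 2.05 and 0.922 CPM in set 2. It fell in both sets. The log2 fold change in set 1 was -1.08, with a standard error of 0.368 and a moderated adjusted p-value of 0.0379, and that in set 2 was -2.17, with a standard error of 0.461 and an adjusted p-value of 0.00203. The call in set 1, where the groups overlapped, was lost without No gRNA replicate 2 (log2 fold change -0.89, adjusted p = 0.109), No gRNA replicate 3 (-1.04, adjusted p = 0.0833), set 1 replicate 1 (-0.80, adjusted p = 0.148) or set 1 replicate 2 (-1.0, adjusted p = 0.113). In SUM159 it was at 14.3, 9.86 and 13.8 CPM in No gRNA, 5.56, 6.10 and 10.6 CPM with gRNA 4, and 11.1, 8.97 and 6.70 CPM with All gRNA. The log2 fold changes of -0.82 and -0.52 did not pass the moderated test (adjusted p-values of 0.0547 and 0.192), and that of gRNA 4 passed without No gRNA replicate 2 (-0.99, adjusted p = 0.0354) or gRNA 4 replicate 3 (-1.11, adjusted p = 0.0176). With all libraries kept, that of gRNA 4 passed by DESeq2 (-0.78, adjusted p = 0.0464) and with library totals for scaling (-0.86, adjusted p = 0.0459), and not by edgeR (adjusted p = 0.0729). It was called in 5 of 16 alternatives, among them wild type as control, with the sign reversed. Wild type cells held less NOTCH3 than No gRNA in both lines, by 2.24 on the log2 scale in SUM159 (moderated adjusted p = 0.00011, TREAT adjusted p = 0.0498) and 1.51 in MDA-MB-231 (adjusted p = 0.00737). In MDA-MB-231, wild type cells were at 3.69, 2.06 and 3.18 CPM and overlapped both sets.

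**Figure D3:**
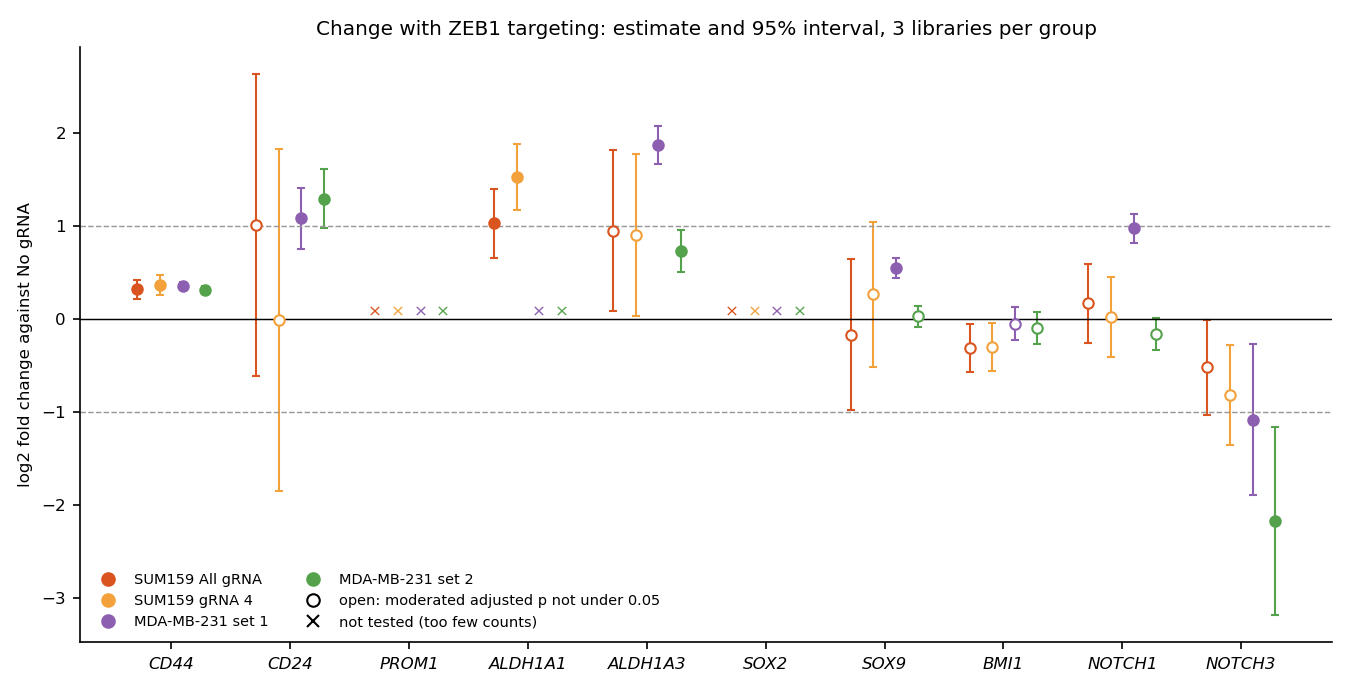
Log2 fold change of each member against No gRNA in the 4 comparisons, with 95% intervals from the fit on the y axis, filled where the moderated adjusted p-value was under 0.05 and marked with a cross where counts were too low. CD44 is the only member filled in all 4 comparisons, at 0.31 to 0.37, and the dashed lines at 1 and -1 mark the TREAT threshold.

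Several members differed between the controls, that is between No gRNA and wild type cells. In SUM159, 4 of 8 members passed the moderated test, beside 42.9% of all genes: CD44 and NOTCH3 were higher, and CD24 and SOX9 lower. In MDA-MB-231, CD44, ALDH1A3, NOTCH1 and NOTCH3 were higher, 4 of 7 beside 53.8%. The SUM159 wild type cells of run 2 differed from those of run 1 in several members: CD44 was at 256 ± 5.85 CPM (SD, n = 3) in run 2 and at 555.3, 595.0 and 538.1 CPM in run 1, and NOTCH3 at 11.3, 10.6 and 13.2 CPM against 2.66, 2.80 and 2.41 CPM. The NOTCH3 level of run 2 wild type cells was thus near that of No gRNA cells, while No gRNA and the wild type cells it was compared with shared a run in each line. Differences in culture between these groups were not tested.

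Between the targeted groups of a line, gRNA 4 and All gRNA differed in 0 of 8 members by the moderated test in SUM159, beside 0.944% of genes, with ALDH1A1 nearest to the threshold. In MDA-MB-231, CD44, ALDH1A3, SOX9 and NOTCH1 were lower in set 2 than in set 1, 4 of 7 beside 51.5%. For CD44 the difference was 0.05 on the log2 scale (adjusted p = 0.0482), and for ALDH1A3 and NOTCH1 it was 1.14 each. ZEB1 itself did not pass this test, with a log2 difference of -0.18 (95% interval -0.68 to 0.32).

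The lines were compared directly in wild type cells of run 2, where 7 of 8 members tested differed, beside 75.5% of genes. The study grew SUM159 in a medium with insulin and hydrocortisone, and MDA-MB-231 in DMEM. Line and culture medium therefore cannot be told apart in any comparison of the lines. MDA-MB-231 held more CD44 (log2 difference of SUM159 minus MDA-MB-231 -2.34), CD24 (-3.26), ALDH1A3 (-3.59) and SOX9 (-6.95), and SUM159 more NOTCH3 (2.00), ALDH1A1 and, by 0.17, NOTCH1. BMI1 did not pass the test (0.10, 95% interval -0.11 to 0.32). With the SUM159 wild type cells of run 1 in their place, the differences in CD44 (-1.18) and CD24 (-1.52) were smaller and still passed the test, ALDH1A3 was at -4.51 and SOX9 at -6.93, NOTCH3 (-0.13) and NOTCH1 (-0.06) did not pass the test and BMI1 (0.65) did. The ratio of CD44 to CD24 overlapped between the lines, at 7.63, 7.14 and 5.90 in SUM159 and 5.99, 6.02 and 6.05 in MDA-MB-231. Per kilobase of the canonical transcript, CD44 in MDA-MB-231 No gRNA was at 345.1 CPM, SOX9 at 35.2, BMI1 at 26.0, ALDH1A3 at 11.0, CD24 at 9.16, NOTCH1 at 6.68 and NOTCH3 at 1.01. In SUM159 No gRNA, CD44 was at 122.0 CPM per kilobase, BMI1 at 34.9, NOTCH1 at 7.09, ALDH1A1 at 5.49, NOTCH3 at 1.46 and CD24 at 0.396.

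Whether the effect of targeting differed between the lines was tested as an interaction over 24 libraries, the mean of both targeted groups minus No gRNA in MDA-MB-231 less the same in SUM159. Of 8 members, 0 passed the moderated test of voom-limma or the quasi-likelihood test of edgeR, beside 25.4% of all genes, and 1, NOTCH3, had an unadjusted p-value under 0.05 by voom-limma (difference -0.98, moderated adjusted p = 0.0779). The MDA-MB-231 sets differed from each other in several members, such as NOTCH1 (0.97 in set 1 and -0.16 in set 2). Their mean therefore describes neither set, and the lack of calls does not show that the lines responded alike. The difference for CD44 was -0.03 (95% interval -0.11 to 0.05). For CD24 it was 0.66 with a 95% interval of -0.69 to 2.01, and a difference between the lines was not shown. The value for ALDH1A1 (-1.16) rests on MDA-MB-231 libraries at 0 counts.

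Genes around the members were read from 10 lists of related genes, without the members themselves. These lists too were chosen with earlier results known. Their counts stand beside 10.8% of all genes called by the moderated test with All gRNA, 11.0% with gRNA 4, 37.8% in set 1 and 52.4% in set 2. In the Notch pathway list, 28 of 36 genes were tested in SUM159, of which 3 rose and 2 fell with All gRNA and 4 rose and 1 fell with gRNA 4, at a median log2 fold change of -0.06 with All gRNA and 0.03 with gRNA 4. JAG1, a Notch ligand, rose in SUM159, by 0.39 and 0.48, with MAML3, a coactivator of the cleaved receptor (0.43 and 0.84), while NCSTN, a subunit of the gamma-secretase that cleaves Notch, fell by 0.37 and by 0.45 (All gRNA and gRNA 4). In MDA-MB-231, 5 of 29 rose and 5 fell in set 1, and 5 rose and 12 fell in set 2, with medians of 0.06 and -0.05. These shares, 34.5% and 58.6%, lie near the 37.8% and 52.4% of all genes. HES2 and HES4, members of the HES family of repressors, rose there, at log2 fold changes of 1.71 and 1.15 for HES2 and 0.99 and 0.77 for HES4, while the coactivator MAML2 fell, at -0.60 and -1.22 (set 1 and set 2). HES1, the best known Notch target and chosen after its values were seen, was higher in set 1 (0.31) and lower in set 2 (-0.64), both past the moderated test.

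Of 17 other aldehyde dehydrogenases, 13 were tested in each line. In SUM159, 1 passed in both targeted groups, ALDH3B1, which oxidizes fatty aldehydes, at log2 fold changes of -0.61 with All gRNA and -0.76 with gRNA 4, and the list's medians were 0.04 and 0.03. In MDA-MB-231, 3 rose and 5 fell in set 1, and 4 rose and 2 fell in set 2, with medians of -0.16 and -0.07, or 61.5% and 46.2% of the list against 37.8% and 52.4% of all genes. ALDH3B1 fell there too (-0.61 and -1.77), and ALDH1B1, a mitochondrial member, rose (0.60 and 0.66), with ALDH16A1 (0.88 and 1.33). In the retinoic acid list of 17, 2 of 11 genes tested rose in SUM159 with All gRNA, and 1 rose and 1 fell with gRNA 4, at medians of 0.26 and 0.22, and DHRS3, which reduces retinal, rose by 0.67 and 0.71. In MDA-MB-231, 3 of 13 rose and 5 fell in set 1, and 3 rose and 6 fell in set 2, at medians of -0.14 and -0.30, or 61.5% and 69.2% against the same 37.8% and 52.4%. CYP26B1, which degrades retinoic acid, rose (0.75 and 0.42), and PLAAT4 (formerly RARRES3), a gene induced by retinoids, fell (-1.65 and -1.90), as did the receptor RARG (-0.30 and -0.32).

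The hyaluronan list of 11 genes holds the enzymes and other receptors of the CD44 ligand. In SUM159, HAS3, a hyaluronan synthase, was at 7.76 ± 1.32 CPM in No gRNA (SD, n = 3), and rose to 20.4 ± 1.19 under gRNA 4 and 21.5 ± 2.62 under All gRNA. CEMIP2, which degrades hyaluronan, rose from 20.5 ± 0.906 to 43.4 ± 2.95 and 34.9 ± 6.55. These were the 2 of 6 tested that passed, both in each group, with list medians of 0.33 for All gRNA and 0.40 for gRNA 4. In MDA-MB-231, 3 of 7 rose in set 1, and 2 rose and 1 fell in set 2, or 42.9% in each beside 37.8% and 52.4% of all genes, at medians of 0.63 and 0.18, and the hyaluronidase HYAL2 rose in both, by 0.87 and 1.10. HAS3 in MDA-MB-231 was at 1.22 CPM in No gRNA, 1.88 for set 1 and 1.30 for set 2 and did not pass the test.

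Among 9 partners and splicing regulators of CD44, 1 of 7 rose in SUM159 with All gRNA and 3 of 7 with gRNA 4, while in MDA-MB-231 4 of 9 rose and 1 fell in set 1, and 2 rose and 2 fell in set 2 (55.6% and 44.4%, beside 37.8% and 52.4% of all genes). The list medians were 0.24, 0.17, 0.17 and -0.07 in that order. ESRP1, a splicing factor of epithelial cells that promotes the variant exons of CD44, was at 3.09 ± 1.06 CPM in MDA-MB-231 No gRNA, 69.6 ± 7.75 for set 1 and 55.3 ± 10.9 for set 2 (log2 fold changes of 4.53 and 4.21, TREAT adjusted p-values of 0.000124 and 0.000136). In SUM159 it was at 1.31 ± 1.22 CPM in No gRNA, 4.49 ± 2.24 under gRNA 4 and 3.01 ± 0.317 under All gRNA. It passed the moderated test there with gRNA 4 (log2 fold change 1.98, adjusted p = 0.0469) and not with All gRNA (1.54, adjusted p = 0.124). Counts per gene add up all CD44 isoforms, and a shift between them is not visible here. EZR, which links CD44 to actin, rose in MDA-MB-231 (0.17 and 0.97), SRGN, a proteoglycan that binds CD44, fell (-0.39 and -0.27), and MSN, related to EZR, rose in SUM159 (0.34 and 0.17).

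Other surface markers of breast stem or progenitor cells numbered 20, of which 15 were tested in SUM159 and 18 in MDA-MB-231. With All gRNA 4 rose and 1 fell, under gRNA 4 the numbers were 4 and 2, in set 1 they were 4 and 5, and in set 2 they were 4 and 6, at medians of 0.16, 0.20, 0.07 and -0.07. In MDA-MB-231 these were 50.0% and 55.6% of the list, beside 37.8% and 52.4% of all genes, and in SUM159 33.3% and 40.0%, beside 10.8% and 11.0%. EPCAM, an epithelial adhesion protein, was at 12.6 ± 1.68 CPM in MDA-MB-231 No gRNA, 290.0 ± 8.72 for set 1 and 380.2 ± 4.37 for set 2 (TREAT adjusted p-values of 7.11e-10 and 1.13e-10). In SUM159, EPCAM was at 0 counts in the 3 No gRNA libraries, and its 1.12 ± 0.230 CPM with gRNA 4 and 0.868 ± 0.0546 CPM with All gRNA were at least 6.49-fold and 5.02-fold higher than a floor of 3 counts per library. CD55, a complement inhibitor, rose in SUM159 (0.36 and 0.40), as did PROCR, the protein C receptor (0.38 and 0.28). In MDA-MB-231, ITGB3, an integrin subunit, fell (-0.95 and -3.26), with the tetraspanin TSPAN8 (-1.90 and -1.88).

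Polycomb genes were all tested, 19 in each line: 1 rose and 1 fell with All gRNA, 2 rose and 1 fell under gRNA 4, 3 rose and 3 fell in set 1, and 8 rose and 3 fell in set 2, at medians of 0.00, 0.06, 0.03 and 0.19 for All gRNA, gRNA 4, set 1 and set 2. The shares called, 10.5%, 15.8%, 31.6% and 57.9% in that order, lie near the 10.8%, 11.0%, 37.8% and 52.4% of all genes. SUZ12, a core subunit of complex 2, fell in SUM159 (-0.28 and -0.48) and PHC2, of complex 1, rose (0.26 and 0.29), while in MDA-MB-231 PHC2 fell (-0.28 and -0.52), CBX7 fell (-0.29 and -1.13) and PCGF5 rose (0.31 and 0.55). In the SOX family of 13, 1 of 6 genes tested rose in each SUM159 group, SOX7 (0.38 and 0.31). In MDA-MB-231, 1 of 7 rose and 1 fell in set 1, and 2 rose and 3 fell in set 2, where SOX12 fell in both (-0.34 and -0.26), at list medians of 0.22, 0.13, 0.38 and -0.26. Of 7 pluripotency factors, 3 were tested in SUM159 and 4 in MDA-MB-231. KLF4 and MYC, chosen after their values were seen, rose in set 1 (0.42 and 0.84) and fell in set 2 (-1.25 and -0.27), at list medians of 0.36 and -0.22. In SUM159, KLF4 fell with gRNA 4 (-0.45, moderated adjusted p = 0.0053), and the list medians were 0.00 and 0.16 for All gRNA and gRNA 4.

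**Figure D4:**
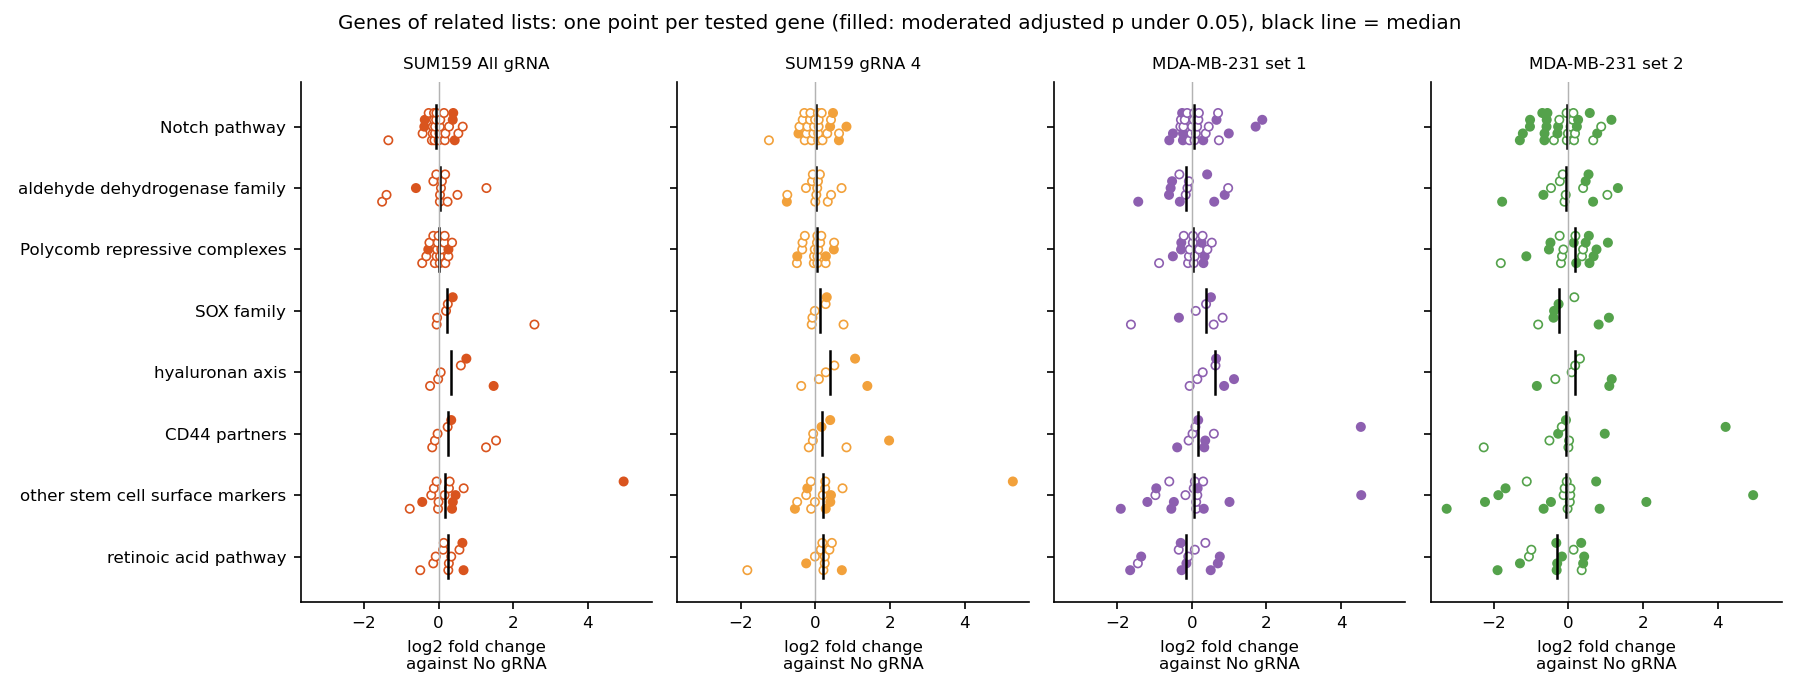
Log2 fold change against No gRNA of the tested genes in 8 of the lists, members excluded, with 1 point per gene on the x axis, filled where the moderated adjusted p-value was under 0.05, and a black line at each list's median. EPCAM is the point farthest right in each panel and ITGB3 the point farthest left in the set 2 panel, while most list medians lie near 0.

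Epithelial and mesenchymal markers also differed between these groups. The summed level of 6 luminal genes (KRT8, KRT18, KRT19, GATA3, CDH1, CLDN4) was 879 CPM in MDA-MB-231 No gRNA, 1295 for set 1 and 2541 for set 2, and 365.5 CPM in SUM159 No gRNA, 469.0 under gRNA 4 and 465.5 under All gRNA. In wild type MDA-MB-231 cells this sum was 1432 CPM, above set 1. Wild type SUM159 cells were at 392.6 CPM in run 1 and 254.6 CPM in run 2. The 3 mesenchymal genes VIM, FN1 and CDH2 summed to 3772 CPM (No gRNA), 2015 (set 1) and 2878 (set 2) in MDA-MB-231. In SUM159 they summed to 6206 CPM (No gRNA), 5476 (gRNA 4) and 5534 (All gRNA). Their sum in wild type cells was 2719 CPM in MDA-MB-231, below set 2, and 4902 (run 1) and 3803 CPM (run 2) in SUM159. These genes did not move together: in set 2, VIM and CDH2 rose and FN1 fell, each past the moderated test. In set 1, VIM and FN1 fell, and in both SUM159 targeted groups FN1 and CDH2 fell. With the blood, endothelial and receptor genes these lists hold 17 genes, of which 3 of 10 tested rose and 2 fell with All gRNA, 1 rose and 3 fell under gRNA 4, 4 of 12 rose and 2 fell in set 1, and 7 rose and 3 fell in set 2. In that order these were 50%, 40%, 50% and 83.3% of the genes tested, beside 10.8%, 11.0%, 37.8% and 52.4% of all genes. The part of these marker genes in the members' values was not tested.

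The genes whose level followed CD44 and CD24 most closely over the 12 libraries of a line were listed by Pearson's r of log2 CPM, as a description of libraries that share groups. In SUM159, CD44 was most like TREM1 (r = 0.988), F11R (r = 0.984) and CKMT1A (r = 0.984), the last a gene with a near-identical copy. In MDA-MB-231 it was most like JUP (r = 0.996), MYO1E (r = 0.990) and COL4A2 (r = 0.990). For CD24 these were C2CD3 (r = 0.932), PREX1 (r = 0.929) and FEM1A (r = 0.928) in SUM159, and SRRD (r = 0.979), CSTB (r = 0.977) and CARMIL1 (r = 0.974) in MDA-MB-231, out of 13230 and 13720 genes compared.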

How the data were processed

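The study measured RNA in 27 libraries with 50 bp single-end reads. The authors quantified these with Salmon and tximport against GRCh38 and deposited estimated counts for each gene, scaled for transcript length and not normalized between libraries. The Salmon version, annotation and strandedness are not given in the sources used here, so overlapping genes were treated as uncertain. GENCODE release 44 named 56347 of the 57165 identifiers, and start regions came from RefSeq.

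Analyses used R 4.3.3 (limma 3.58.1; edgeR 4.0.16; DESeq2 1.42.0). The main test, voom-limma with TREAT, was the one the study names. Its settings here were TMM scaling, filterByExpr with a minimum count of 10, voom (0.5 added), one linear model per line over its 12 libraries and TREAT at a log2 fold change of 1, two-sided, with Benjamini-Hochberg adjustment over all genes tested. The moderated test took 0 as its null value in that same model. The interaction used 24 libraries. CPM are TMM scaled over all 27 libraries, and log2 CPM add a prior count of 2. The CD44 to CD24 ratio was tested by two-sided exact permutation. Estimated counts were rounded before the edgeR and DESeq2 tests only. Of these steps, only the voom-limma fit was tested on simulated data, for SUM159 All gRNA against No gRNA and for the interaction. Totals of 15461200 to 21473757 counts per library set the precision, and groups with 3 counts or fewer in each library were taken as at the floor.

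The members and lists were chosen with earlier results of these data known. Outside the members, ZEB1 and ZEB1-AS1, named genes are those called by the moderated test in both targeted groups of a line in 1 direction without overlap with No gRNA, up to 3 per list and line by mean size, and the 3 genes most like CD44 and CD24 with a mean of at least 1 CPM. HES1, KLF4, MYC and the values of ESRP1 in SUM159 fall outside this rule and were added after their values were seen. Alternatives were other tests (edgeR, DESeq2, TREAT at the log2 of 1.2), scalings, no filter, other libraries in the model, sample quality weights, a replicate block, wild type in place of No gRNA, and leaving out each library.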

Additional observations from a re-analysis of the deposited data

How the results depend on the processing

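Over 479 alternative log2 fold changes of the members, 450 kept their direction and side of the moderated threshold or were called in neither setting, 14 became called, 10 were no longer called and 5 reversed. CD44 in all 4 comparisons, ALDH1A1 in SUM159, CD24 and ALDH1A3 in MDA-MB-231, and SOX9 and NOTCH1 in set 1 were called in all 16 alternatives each. The 5 reversals all came with wild type cells as the control: CD24 was -1.95 and NOTCH3 1.72 with All gRNA, SOX9 -0.83 and NOTCH3 1.42 with gRNA 4, and NOTCH3 0.42 in set 1. That control also gave 7 moderated calls in each SUM159 group and TREAT calls for 2 members in set 1 and 1 in set 2, ended the call of NOTCH3 in set 2 (-0.66), and moved the CD44 to CD24 log2 difference to 2.41 (All gRNA), 3.42 (gRNA 4), -0.16 (set 1) and -0.42 (set 2). TREAT at the log2 of 1.2 called 1 member in each SUM159 group (ALDH1A1), 5 in set 1 and 4 in set 2. With each library left out, the ratio difference ran from -1.40 to -0.17 (All gRNA), -0.0478 to 0.97 (gRNA 4), -0.83 to -0.55 (set 1) and -1.09 to -0.81 (set 2). NOTCH3 in set 1 also lost its call by edgeR (adjusted p = 0.0841), by DESeq2 (adjusted p = 0.0667), without the filter (adjusted p = 0.0643) and with only the 2 groups in the model (adjusted p = 0.0544), over a range of adjusted p-values from 0.0172 to 0.44. With the replicate block 5 members were called in set 1, NOTCH3 not (adjusted p = 0.0662), and the block changed no other call. Deviations of libraries with the same replicate number correlated between -0.0831 and 0.0584, so the numbers were not taken to pair the libraries. BMI1 with All gRNA was called with both lines in one model (adjusted p = 0.0497). The causes of these changes were not tested. PROM1 in both lines, SOX2 in both and ALDH1A1 in MDA-MB-231 held too few counts to be tested at this depth.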

Other observations

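Several genes near the members stood apart between No gRNA and wild type MDA-MB-231 cells and were closer to wild type cells in set 2 than in No gRNA. NOTCH3 was at 2.97 ± 0.834 CPM (SD, n = 3) in wild type cells and 8.80 ± 2.52 in No gRNA, against 4.37 ± 2.17 for set 1 and 2.04 ± 1.11 for set 2. ALDH3B1 was at 16.7 ± 1.25, 46.2 ± 1.58, 30.2 ± 2.54 and 13.3 ± 0.898 CPM in the same order. MAML2 was at 21.5 ± 1.48, 51.8 ± 0.979, 34.0 ± 0.661 and 21.9 ± 2.12 CPM, and CBX7 at 8.75 ± 1.1, 19.8 ± 0.563, 16.2 ± 0.817 and 8.91 ± 0.261 CPM. ITGB3 was at 1.38 ± 0.598, 10.3 ± 0.703, 5.40 ± 1.5 and 1.08 ± 0.471 CPM, and PLAAT4 at 5.48 ± 0.721, 17.4 ± 0.914, 5.56 ± 1.07 and 4.57 ± 0.630 CPM. For these 6 genes, picked after their values were seen, the direction or size of the change with targeting depends on which control is used. CD44, CD24 and ALDH1A3 do not follow this order: all were higher in sets 1 and 2 than in both controls.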
